A study of Mus musculus with 6 samples.

Results

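The myostatin and activin pathway was followed through 10 genes in soleus (Sol) muscle of mice that had run voluntarily on a wheel (voluntary wheel running, VWR). The genes were taken by symbol from a table of 24411 genes, and 10 of 10 were measured well enough to be tested. They comprise the ligands Mstn, Gdf11 and Inhba, the extracellular antagonists Fst and Fstl3, the receptors Acvr2a, Acvr2b and Acvr1b, the signal transducer Smad3 and the inhibitory Smad7. The series asks how muscle lacking LSD1, a histone demethylase encoded by Kdm1a, differs in gene expression from control muscle after endurance exercise. It holds 6 poly(A) RNA libraries, 1 per mouse, from 3 WT and 3 LSD1-mKO mice.

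The mice were of the C57BL/6 strain. LSD1-mKO mice carried floxed Lsd1 alleles and a tamoxifen-inducible Cre (CreERT2) driven by the human ACTA1 promoter, which is active in differentiating and differentiated muscle cells. WT mice carried the floxed alleles without CreERT2. Both groups received tamoxifen at 75 mg/kg for 5 days, were 8 weeks old when the running protocol began, had 3 days of familiarization and had wheel access for 38 days. Muscles of both groups were taken after a fast without access to the wheel. No sedentary mice are among the samples, so the values describe genotypes after running and not an effect of running. The deletion was directed at these muscle cells, whereas the RNA came from whole muscle with its connective tissue, vessels, nerves and blood.

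Myostatin, the product of Mstn, is a secreted ligand of the TGF-beta family made largely by skeletal muscle, and loss of it gives animals with enlarged muscles. Myostatin, its close relative GDF11 and activin A, a dimer of the Inhba product, bind the type II receptors encoded by Acvr2a and Acvr2b, which activate type I receptors such as the Acvr1b product ALK4. The type I receptor phosphorylates Smad2 and Smad3, which enter the nucleus with Smad4, while follistatin and its relative encoded by Fstl3 bind the ligands outside the cell and Smad7 blocks the receptor.

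The 2 type II receptors are paralogs whose reads could be confused, so the most similar stretch of the length of a read was looked for in the pair. Capitals mark the bases at which the paralogs differ within 75 bases of coding sequence, taken from GENCODE transcripts on GRCm38. The Acvr2a stretch lies in exon 6 at chr2:48892198-48892272 on the plus strand, and the Acvr2b stretch lies in exon 6 at chr9:119429934-119430008 on the plus strand.
Acvr2a: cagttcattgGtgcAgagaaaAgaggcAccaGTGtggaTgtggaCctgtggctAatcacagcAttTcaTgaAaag
Acvr2b: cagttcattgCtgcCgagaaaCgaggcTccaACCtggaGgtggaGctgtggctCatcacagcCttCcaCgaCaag
Even in this stretch 14 of 75 bases differed, and the longest identical run between the 2 coding sequences was 14 bases. No window of 75 bases was shared with another gene's transcript for 7 of the 10 genes, among them Mstn, Gdf11, Inhba and Acvr2b.

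The libraries held 8940206 to 13798059 estimated counts, and the 10 genes together took 0.0154 to 0.0180% of them. Kdm1a, the targeted gene, was measured in counts per 1000000 after TMM scaling (CPM), at 40.5, 38.2 and 33.6 CPM in WT mice 1 to 3 and at 14.6, 16.6 and 16.6 CPM in LSD1-mKO mice 1 to 3. Its groups did not overlap, with a log2 fold change of LSD1-mKO over WT of -1.23 ± 0.11 (SE) and an adjusted p of 0.0160 in edgeR. That call was lost when WT mouse 2 or any 1 of the LSD1-mKO mice was left out, with adjusted p from 0.111 to 0.209 and a log2 fold change of -1.17 to -1.26. Markers of slow and fast fibers were abundant in every library, at 32173 to 41943 and 27455 to 40574 CPM summed over 7 and 8 genes. WT mouse 1 stood apart from the other WT mice in fibroblast and immune markers. Its summed fibroblast level was 974 CPM, against 2683 and 3137 CPM in the other WT mice and 1143 to 2099 CPM in LSD1-mKO. Its summed immune level was 21.7 CPM, against 92.8 and 74.1 CPM in the other WT mice and 26.8 to 60.7 CPM in LSD1-mKO.

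None of the 10 pathway genes passed the threshold of an adjusted p under 0.05 between genotypes in edgeR's quasi-likelihood test, which called 2 of 12828 genes, or 0.0156%, in all. Those 2 were Kdm1a and Esr1, which encodes an estrogen receptor. Esr1 stood at 24.0, 24.4 and 18.6 CPM in WT mice 1 to 3 and at 301, 461 and 428 CPM in LSD1-mKO mice 1 to 3. Only LSD1-mKO mice carried CreERT2, and the paper's name for that Cre line includes Esr1. The part of transgene reads in the Esr1 counts was not tested. DESeq2 and voom also called 0 of the 10. At an unadjusted p under 0.05 the count was 0 of 10, where 6.40% of all genes tested lay. The WT and LSD1-mKO values overlapped for all 10 genes, whereas 12.7% of all genes tested had groups without overlap. The fitted level was lower in LSD1-mKO for 6 of the 10 genes and higher for 4, among which Acvr2a turned lower with library size alone, beside 54.8% lower over all genes tested. The median log2 fold change of the 10 genes was -0.097, beside -0.020 over all genes tested. An exact permutation test of 3 against 3 mice cannot give a p under 0.1, and for the 10 genes it gave 0.3 to 0.9 (two-sided). What the data do give for each gene is a level, a spread over mice and an interval for the genotype difference.

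**Figure D1:**
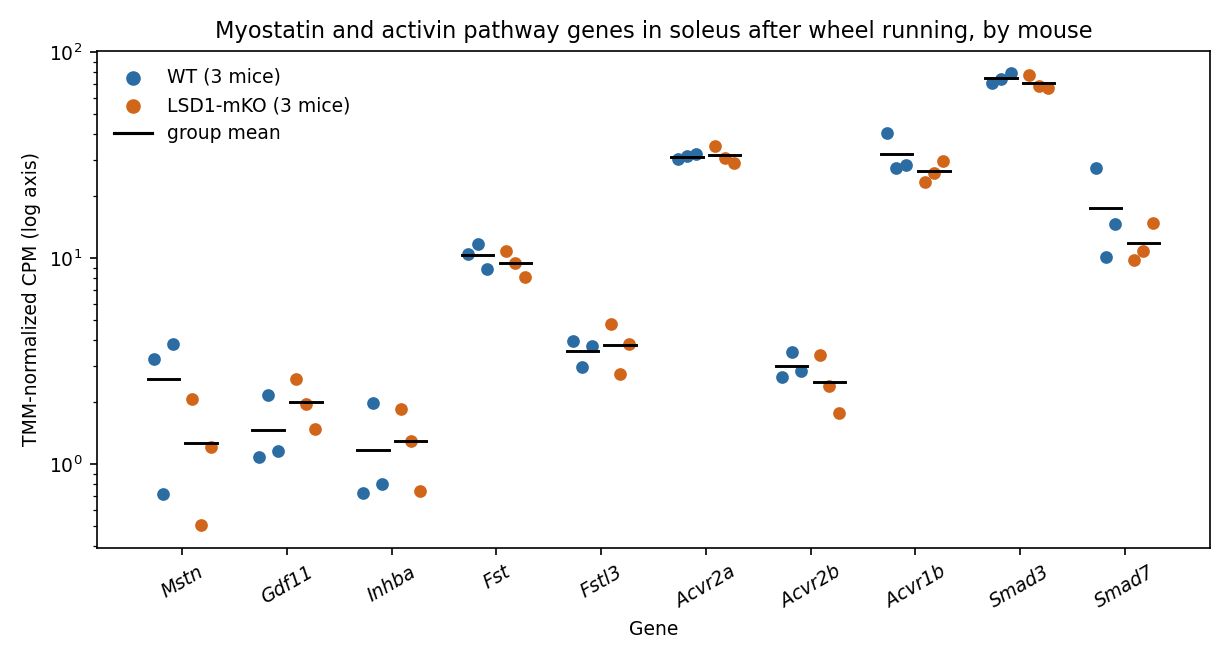
The plot shows TMM-normalized CPM on a log axis for the 10 genes, with 1 point per mouse in blue for WT and orange for LSD1-mKO and a black line at each group mean. Points of the 2 genotypes overlap for all 10 genes, and Mstn spreads over the widest range, from 0.507 to 3.82 CPM.

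Among the ligands, Mstn was the gene that varied most from mouse to mouse. Mstn lies on chr1:53061640-53068079 of GRCm38 on the plus strand and has 3 exons. It stood at 3.26, 0.720 and 3.82 CPM in WT mice 1 to 3 and at 2.07, 0.507 and 1.21 CPM in LSD1-mKO mice 1 to 3. WT mice 1 and 3 were above all LSD1-mKO mice, whereas WT mouse 2 was below 2 of the 3, so the groups overlapped. The means were 2.60 ± 1.65 CPM for WT and 1.26 ± 0.784 CPM for LSD1-mKO (SD, n = 3 each), and the log2 fold change was -1.02 ± 0.64 (SE) with an adjusted p of 0.781 in edgeR. Its 95% interval ran from -2.49 to 0.44, that is, from 0.179 to 1.36 times the WT level. Each value rested on 7 to 43 counts, and the counting intervals of WT mice 1 and 3 did not overlap that of WT mouse 2. These exact Poisson intervals were 2.15 to 4.74 CPM for WT mouse 1 and 2.76 to 5.15 CPM for WT mouse 3, and that of WT mouse 2 was 0.311 to 1.42 CPM. The fitted difference also moved with single mice, from -0.59 when WT mouse 3 was left out to -1.62 when LSD1-mKO mouse 1 was left out. Without WT mouse 2 the unadjusted p of Mstn was 0.0192 and its adjusted p was 0.790 in edgeR.

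Gdf11, the closest relative of Mstn, lies on chr10:128882295-128891718 on the minus strand. It was measured at 1.08, 2.16 and 1.15 CPM in WT and 2.59, 1.95 and 1.49 CPM in LSD1-mKO. WT mice 1 and 3 had the 2 lowest levels, and WT mouse 2 was above LSD1-mKO mice 2 and 3. LSD1-mKO over WT gave a log2 fold change of 0.45 ± 0.37 (SE), with an interval from -0.39 to 1.28 and an adjusted p of 0.848 in edgeR. WT mouse 2 had the lowest Mstn and the highest Gdf11 of its group. Per transcript length, the Gdf11 level was 0.222, 2.00 and 0.201 times the Mstn level in WT mice 1 to 3 and 0.832, 2.57 and 0.820 times in LSD1-mKO mice 1 to 3, with a permutation p of 0.5 (exact, two-sided).

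Inhba, which encodes the subunit of activin A, lies on chr13:16011851-16031621 on the plus strand and was among the scarcest of the 10 genes. Its level was 0.723, 1.98 and 0.800 CPM in WT and 1.85, 1.30 and 0.745 CPM in LSD1-mKO, on 6 to 25 counts per mouse. The highest and the lowest mouse were both WT, and the genotypes covered almost the same range. Between genotypes the log2 fold change was 0.15 ± 0.49 (SE), with an interval from -0.98 to 1.27 and an adjusted p of 0.961 in edgeR. The interval thus reached from 0.508 to 2.41 times the WT level.

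The antagonist Fst was steadier than the ligands. Fst encodes follistatin, which binds activin and myostatin with high affinity, and lies on chr13:114452290-114458951 on the minus strand. Its level was 10.5, 11.7 and 8.88 CPM in WT and 10.9, 9.48 and 8.10 CPM in LSD1-mKO. All 6 mice lay within a 1.44-fold range, with the highest in WT and the lowest in LSD1-mKO. The log2 fold change was -0.12 ± 0.17 (SE) with an adjusted p of 0.908 in edgeR, and the interval allowed 0.705 to 1.20 times the WT level. A stretch of 115 exon bases overlaps an annotated antisense gene, Gm47040, and 1.52% of the 75-base windows of the Fst transcript are shared with it.

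Fstl3, which encodes a follistatin-like protein that also binds activin and myostatin, lies on chr10:79777272-79782630 on the plus strand. It stood at 3.98, 2.97 and 3.73 CPM in WT and 4.81, 2.75 and 3.82 CPM in LSD1-mKO. The highest and the lowest mouse were both LSD1-mKO, so WT lay inside the LSD1-mKO range. The log2 fold change was 0.096 ± 0.26 (SE), with an interval from -0.51 to 0.70 and an adjusted p of 0.955 in edgeR. Its reads are harder to assign than those of the other genes, because 57.6% of its 75-base windows are shared with Prss57 on the opposite strand and the library kit is not stated to mark strand. Prss57 was listed at 0 counts in 4 libraries and at 1.55 and 1.59 estimated counts in the other 2, and 2 of the 6 Fstl3 values were not whole numbers.

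The type II receptors differed in level far more than either differed between genotypes. Acvr2a lies on chr2:48814109-48903269 on the plus strand and encodes ActRIIA. It was measured at 30.3, 31.4 and 32.0 CPM in WT and at 35.3, 30.6 and 29.1 CPM in LSD1-mKO. The WT mice were close together and lay inside the LSD1-mKO range. The log2 fold change was 0.022 ± 0.099 (SE) with an adjusted p of 0.974 in edgeR, and the interval from 0.867 to 1.19 times the WT level was among the 2 narrowest of the 10. Acvr2a overlaps Orc4 on the opposite strand over 446 exon bases, and 6.63% of its 75-base windows are shared with that gene, so a share of its reads may be counted for either. Orc4 was listed at 237 to 384 estimated counts per library, and 6 of the 6 Acvr2a values were not whole numbers. The part of shared reads in the Acvr2a level was not tested.

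Acvr2b, which encodes ActRIIB, the receptor for which myostatin has the higher affinity, lies on chr9:119402118-119434995 on the plus strand. Its level was 2.65, 3.51 and 2.84 CPM in WT and 3.40, 2.39 and 1.77 CPM in LSD1-mKO. WT mouse 2 and LSD1-mKO mouse 1 were the 2 highest, and the other LSD1-mKO mice were below all WT mice. Its log2 fold change was -0.25 ± 0.29 (SE), with an interval from -0.91 to 0.42 and an adjusted p of 0.892 in edgeR. Per transcript length, Acvr2a was above Acvr2b in 6 of 6 mice, by 5.00 to 9.19 times. That ratio was 5.89 ± 0.772 in WT and 7.38 ± 1.71 in LSD1-mKO (SD, n = 3 each), with a permutation p of 0.3 (exact, two-sided).

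Acvr1b, which encodes the type I receptor ALK4, lies on chr15:101174067-101213684 on the plus strand. It was measured at 40.6, 27.5 and 28.5 CPM in WT and 23.6, 26.1 and 29.8 CPM in LSD1-mKO. WT mouse 1 was above the other 5 mice, which lay between 23.6 and 29.8 CPM. The log2 fold change was -0.28 ± 0.16 (SE), with an interval from -0.65 to 0.098 and an adjusted p of 0.779 in edgeR, the lowest adjusted p of the 10 genes. When WT mouse 1 was left out the log2 fold change was -0.080.

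Smad3, the transcription factor that carries the signal to the nucleus, lies on chr9:63646767-63757994 on the minus strand and, with Acvr2a, varied least of the 10 genes. Its level was 70.8, 74.4 and 79.2 CPM in WT and 77.4, 69.0 and 67.0 CPM in LSD1-mKO. LSD1-mKO mouse 1 was the second highest of the 6 and the other 2 LSD1-mKO mice were the lowest, within a 1.18-fold range over all mice. Smad3 had a log2 fold change of -0.072 ± 0.091 (SE) with an adjusted p of 0.898 in edgeR, and the interval allowed 0.823 to 1.10 times the WT level.

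Smad7, the inhibitory Smad that is itself induced by TGF-beta signals, stood at 27.6, 10.2 and 14.8 CPM in WT and 9.84, 10.9 and 14.9 CPM in LSD1-mKO. The value of WT mouse 1 was the highest, and without it the 2 genotypes covered nearly the same range. The means were 17.5 ± 9.04 CPM for WT and 11.9 ± 2.68 CPM for LSD1-mKO (SD, n = 3 each), and the log2 fold change was -0.55 ± 0.34 (SE) with an adjusted p of 0.781 in edgeR. Leaving out WT mouse 1 brought it to -0.078. Leaving out WT mouse 2 brought it to -0.83, with an unadjusted p of 0.0224 and an adjusted p of 0.826 in edgeR. WT mouse 1, the highest for Smad7 and Acvr1b, was also the mouse with the lowest summed fibroblast, tendon, endothelial and immune markers. LSD1-mKO mice 2 and 3, at 10.9 and 14.9 CPM for Smad7, had summed fibroblast levels of 1143 and 1245 CPM, against 974 CPM in WT mouse 1. The part of the marker differences in the Smad7 and Acvr1b values was not tested. In whole muscle, fewer cells of a type and less RNA per cell cannot be told apart.

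**Figure D2:**
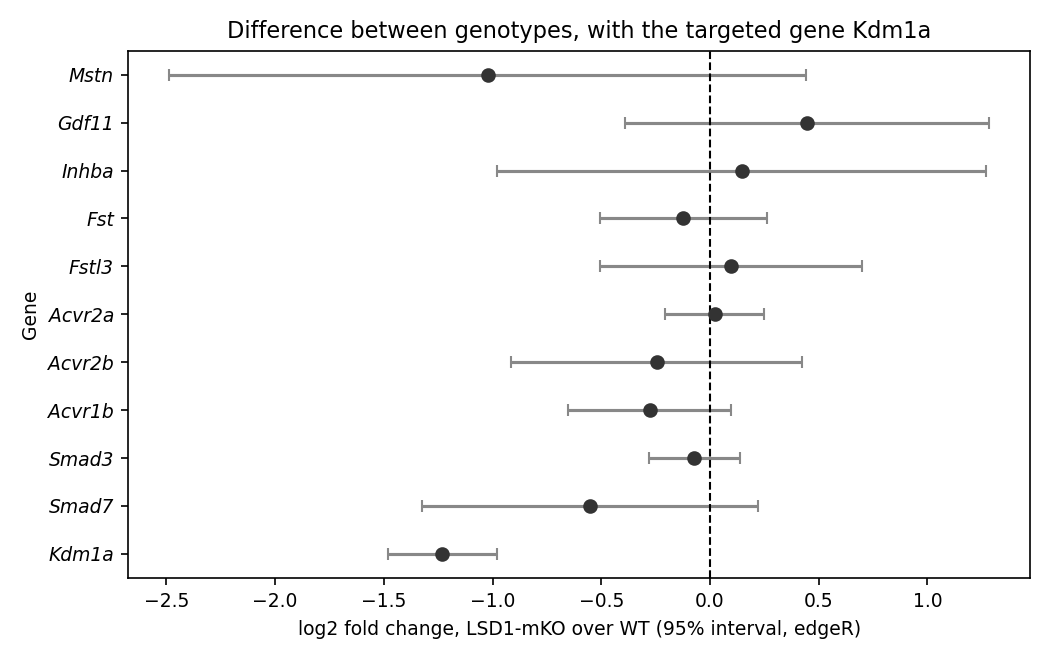
Points show the log2 fold change of LSD1-mKO over WT for the 10 genes and for Kdm1a, with bars for the 95% interval from edgeR and a dashed line at no difference. The bars of all 10 pathway genes cross the dashed line, that of Mstn from -2.49 to 0.44, while the bar of Kdm1a runs from -1.48 to -0.98.

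These intervals differed widely in width. Smad3 and Acvr2a had the narrowest, and changes beyond 0.823 to 1.10 times and 0.867 to 1.19 times the WT level lay outside them. Mstn, Inhba, Gdf11 and Smad7 had the widest, and a level of 0.400 times WT for Smad7 or 2.43 times WT for Gdf11 lay at their limits. For each of the 10 genes the spread within at least 1 genotype was larger than the difference between the genotypes on the log2 scale. The lowest adjusted p of any of the 10 genes in any alternative fit was 0.633, for Mstn when WT mouse 1 was left out.

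Levels of different genes were set side by side as transcripts per 1000000 (TPM), which divide the counts by the length of the longest protein-coding transcript. Smad3 was the most abundant of the 10, at a mean of 31.8 TPM over the 6 mice, above 71.8% of all genes tested. It was followed by the receptors Acvr1b at 14.6 TPM and Acvr2a at 12.3 TPM, near the middle of all genes tested. Fst at 7.77 TPM and Smad7 at 7.50 TPM came next, and then Fstl3 at 4.17 TPM. Fst and Smad7 changed places within WT, at 8.15 ± 1.47 and 8.87 ± 3.89 TPM (SD, n = 3 each). The ligands formed the lower end with Acvr2b: Acvr2b stood at 1.93 TPM, Mstn at 1.56 TPM, Gdf11 at 0.955 TPM and Inhba at 0.433 TPM, and 0.747% of all genes tested were lower than Inhba. Only 3 neighbours in this order had ranges over the 6 mice that did not overlap, Smad3 above Acvr1b, Acvr2a above Fst and Fstl3 above Acvr2b. The ranges of Acvr1b and Acvr2a, of Fst and Smad7, of Smad7 and Fstl3, of Acvr2b and Mstn, of Mstn and Gdf11 and of Gdf11 and Inhba overlapped. Within every single mouse, however, Gdf11 was above Inhba. Mstn and Gdf11 changed places within LSD1-mKO, at 1.03 ± 0.634 and 1.09 ± 0.294 TPM (SD, n = 3 each). The order over the 6 mice was the same with the longest transcript of any kind. The antagonist Fst exceeded the ligand Mstn in 6 of 6 mice, by 2.22 to 17.9 times per transcript length.

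**Figure D3:**
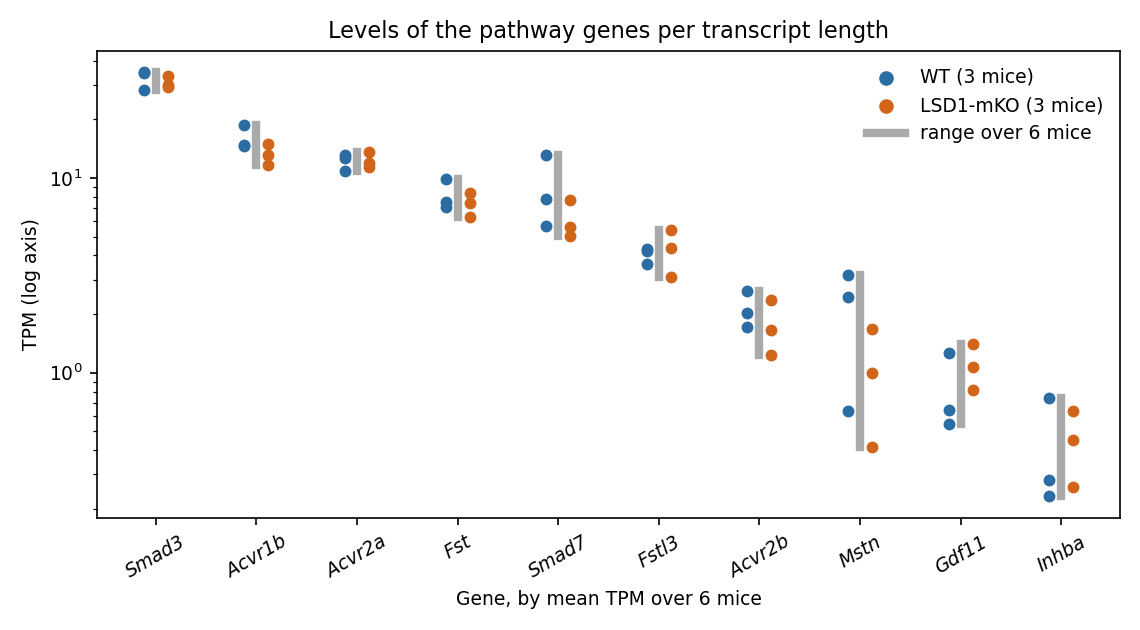
The plot shows TPM on a log axis for the 10 genes ordered by their mean over 6 mice, with WT mice in blue, LSD1-mKO mice in orange and a grey bar over the range of all 6. Levels run from 31.8 TPM for Smad3 down to 0.433 TPM for Inhba, and most neighbouring bars overlap.

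The rest of the pathway was described through 78 further genes in 8 lists, of which 63 were tested. None had an adjusted p under 0.05, the lowest being 0.729, and 3 had an unadjusted p under 0.05, beside 6.40% of all genes tested. The fitted level was lower in LSD1-mKO for 48 of the 63 genes and higher for 15, beside 54.8% lower over all genes tested, with a median log2 fold change of -0.157. With 1 mouse left out, 41 to 48 of the 63 to 65 genes tested were lower, and the median ran from -0.070 without WT mouse 3 to -0.240 without LSD1-mKO mouse 1. The genes lower at an unadjusted p under 0.05 ranged from 0 without LSD1-mKO mouse 2 to 13 without WT mouse 1, and 0 were called in each of these fits. The 6.40% belongs to the fit of all 6 mice. The share of all genes in the fits with a mouse left out is not given here, so these counts have no background. Groups without overlap were found for 4 of the 63 genes, beside 12.7% of all genes tested: Inha, Id1 and Id2 had lower values in every LSD1-mKO mouse, and Bmpr2 had higher ones. No test was run on a list as such, and the values that follow describe these 6 mice.

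Among other activin and TGF-beta ligands, 5 of 10 were tested and the most abundant was Tgfb3, at 63.5 ± 7.21 CPM in WT and 65.4 ± 3.51 CPM in LSD1-mKO (SD, n = 3 each). Inha, the inhibin alpha subunit that pairs with the Inhba product to form an activin antagonist, stood at 4.22, 4.50 and 5.42 CPM in WT and 4.22, 3.40 and 3.73 CPM in LSD1-mKO, so that WT mouse 1 and LSD1-mKO mouse 1 lay at the boundary of the groups. Among ligands of the bone morphogenetic protein (BMP) branch, which signals through Smad1 and Smad5, 5 of 10 were tested and Bmp6 was the most abundant, at 28.4 ± 3.13 CPM in WT and 26.6 ± 1.86 CPM in LSD1-mKO (SD, n = 3 each). The medians of both ligand lists, -0.036 and -0.21 on the log2 scale, were set by 5 genes each, and that of the first turned to 0.037 without WT mouse 2 and to 0.185 without LSD1-mKO mouse 3.

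The other antagonists and latency proteins included 9 tested genes, 2 with higher and 7 with lower fitted levels and a median log2 fold change of -0.084, which turned to 0.027 without WT mouse 3. Dcn, a matrix proteoglycan that can bind myostatin and is also a fibroblast marker, was the most abundant, at 663 ± 231 CPM in WT and 644 ± 62.6 CPM in LSD1-mKO (SD, n = 3 each). The proteases that release ligands from their propeptides had lower fitted levels for 5 of 5 tested genes, with a median of -0.16. With 1 mouse left out, 3 to 5 of the 5 were lower, with 4 without WT mouse 2 or WT mouse 3 and 3 without LSD1-mKO mouse 2, and the median ran from -0.093 without LSD1-mKO mouse 2 to -0.38 without WT mouse 1. Bmp1, which encodes a tolloid-family protease able to cleave the myostatin propeptide, stood at 49.8 ± 11.9 CPM in WT and 36.9 ± 8.29 CPM in LSD1-mKO, with a log2 fold change of -0.44 ± 0.21 (SE) and an adjusted p of 0.766 in edgeR. Tll1, its relative, stood at 0.723, 2.34 and 2.67 CPM in WT and 0.814, 0.941 and 0.931 CPM in LSD1-mKO. WT mouse 1 had the lowest Tll1 of all 6 and the other WT mice the highest, and the log2 fold change of -1.13 ± 0.46 (SE) had an unadjusted p of 0.0374 and an adjusted p of 0.745 in edgeR.

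Among other receptors and co-receptors, 11 of 12 were tested, 9 with lower and 2 with higher fitted levels and a median log2 fold change of -0.19. Bmpr2, a type II receptor for BMPs that also pairs with activin-type ligands, was the most abundant, at 126.8, 114.1 and 124.9 CPM in WT and 128.7, 127.0 and 152.6 CPM in LSD1-mKO. Every LSD1-mKO mouse was above every WT mouse, by as little as 127.0 against 126.8 CPM, and the log2 fold change was 0.16 with an adjusted p of 0.781 in edgeR. Other Smads and their regulators had 8 of 15 genes with higher fitted levels and a median of 0.027, which turned to -0.0043 with 7 of 15 higher when library size alone was used. Ppm1a, a phosphatase reported to act on Smad2 and Smad3, was the most abundant of them at 255 ± 30.9 CPM in WT and 290 ± 19.1 CPM in LSD1-mKO (SD, n = 3 each). Smad2 stood at 30.5 ± 3.33 and 29.8 ± 0.866 CPM and Smad4 at 61.0 ± 4.06 and 63.4 ± 1.81 CPM in WT and LSD1-mKO (SD, n = 3 each), and the values of both partners of Smad3 overlapped between the genotypes.

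In the edgeR fit of all 6 mice, every gene of the 2 lists of Smad target genes had a lower fitted level, beside 54.8% lower over all genes tested. Whether the pathway drives these genes in soleus was not tested. All 8 genes listed as Smad2/3 targets were lower, from -1.08 to -0.11 on the log2 scale with a median of -0.31, and 0 of 8 had groups without overlap. Ctgf, a secreted matrix-associated protein induced by TGF-beta, stood at 271.6, 157.2 and 275.9 CPM in WT and 168.4, 158.7 and 179.4 CPM in LSD1-mKO. WT mice 1 and 3 were well above the rest and WT mouse 2 was the lowest of all 6, and the log2 fold change of -0.48 ± 0.20 (SE) had an unadjusted p of 0.0408 and an adjusted p of 0.766 in edgeR. Col1a1, a fibrillar collagen, stood at 221, 571 and 794 CPM in WT and 440, 146 and 167 CPM in LSD1-mKO and had the largest difference of the list, -1.08 ± 0.52 (SE, adjusted p of 0.766 in edgeR). Col1a1 is also one of the fibroblast markers, and 6 of 6 fibroblast markers and 4 of 4 tested immune markers had lower fitted levels, with 0 called and with summed levels that overlapped between the genotypes. None of the markers was at 0 in all libraries, and their part in the values of the target genes was not tested. With 1 mouse left out, 6 to 8 of the 8 genes were lower, with 6 when WT mouse 3 was left out, and the median ran from -0.35 to -0.12.

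All 5 genes listed as targets of Smad1 and Smad5, the BMP branch, were lower as well, from -0.51 to -0.26 with a median of -0.34. Id1, an inhibitor of basic helix-loop-helix factors, stood at 42.4, 29.1 and 25.6 CPM in WT and 23.1, 23.2 and 24.7 CPM in LSD1-mKO. Its groups did not overlap, although WT mouse 3 was close to LSD1-mKO mouse 3, and the log2 fold change of -0.45 ± 0.18 (SE) had an unadjusted p of 0.0340 and an adjusted p of 0.729 in edgeR. Id3, a relative and the most abundant of the list, stood at 44.4 ± 7.72 CPM in WT and 35.6 ± 3.63 CPM in LSD1-mKO (SD, n = 3 each), with a log2 fold change of -0.32 ± 0.14 (SE) and an adjusted p of 0.766 in edgeR. WT mouse 1 was the highest mouse for Id1 and Id3, as it was for Smad7. The 5 genes were lower with any 1 mouse left out, and the median was -0.18 without WT mouse 1.

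**Figure D4:**
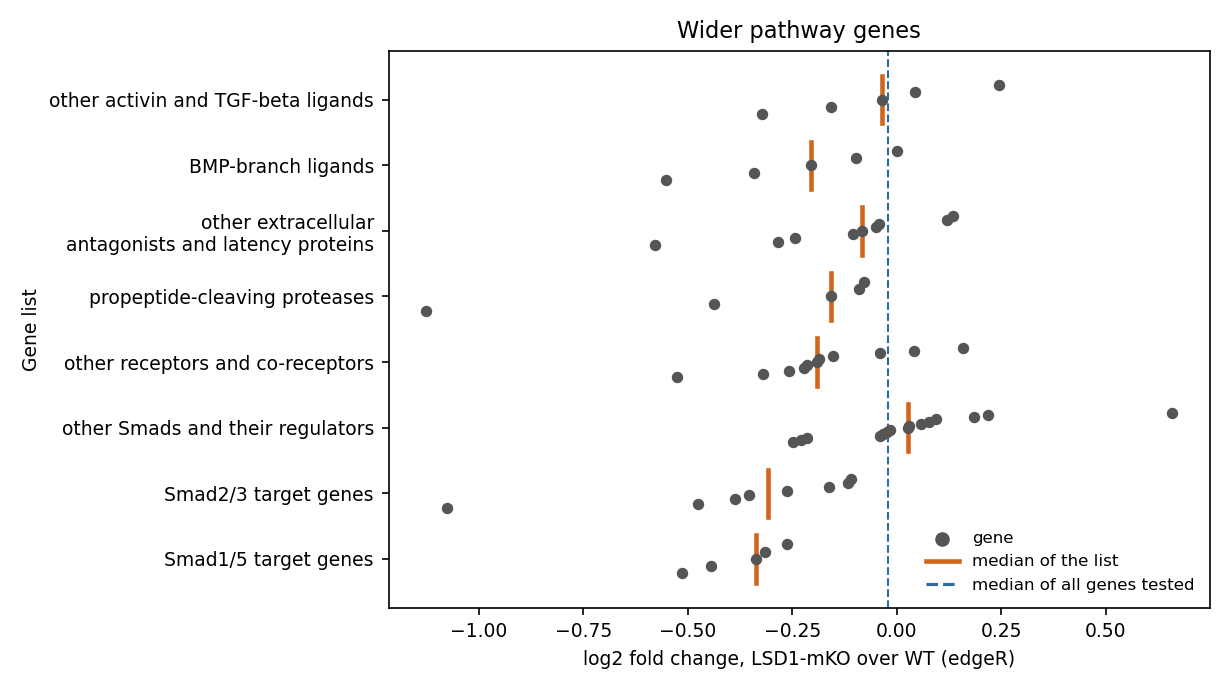
Each grey point is the log2 fold change of LSD1-mKO over WT of 1 tested gene in 8 lists of the wider pathway, with an orange bar at the median of each list and a dashed blue line at the median of all genes tested. The points of the 2 target lists lie left of the dashed line, with medians of -0.31 and -0.34, and those of other Smads lie on both sides of it.

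The mouse-to-mouse pattern of Mstn was compared with that of the 10211 other genes with a mean of at least 5 CPM, by the root mean square difference of their log2 deviations over the 6 mice. The pattern of Mstn itself had a root mean square of 0.948, and the 5 most similar genes differed from it by 0.377 to 0.524. The closest was Pvalb, which encodes the calcium buffer parvalbumin of fast fibers, at 157.6, 60.05 and 145.2 CPM in WT and 108.8, 37.3 and 112.5 CPM in LSD1-mKO. The next was Myh8, the perinatal myosin heavy chain, at 19.9, 6.21 and 38.6 CPM in WT and 20.7, 4.34 and 5.96 CPM in LSD1-mKO. Mettl21e, which encodes a methyltransferase-like protein, and the inducible transcription factors Atf3 and Fos followed, at 0.470, 0.523 and 0.524. The genes were picked for their likeness to Mstn, so the low levels in WT mouse 2 and LSD1-mKO mouse 2 that they share with it follow from the choice. Of the fiber markers, the summed fast-fiber level was lowest in WT mouse 2, at 27455 CPM, and next lowest in LSD1-mKO mouse 2, at 30493 CPM. The summed slow-fiber level was also lowest in WT mouse 2, at 32173 CPM, and highest in LSD1-mKO mouse 2, at 41943 CPM. Pvalb is 1 of the 8 genes in the fast-fiber sum, and the part of the fiber levels in the Mstn values was not tested.

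**Figure D5:**
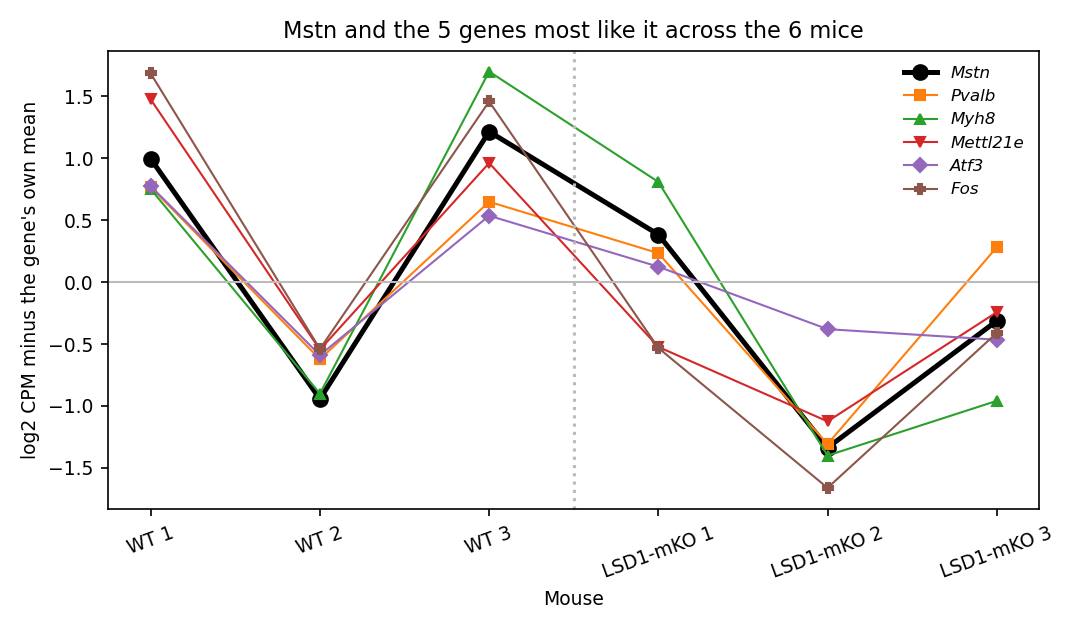
The plot shows, for Mstn in black and the 5 genes most like it in colour, the log2 CPM of each mouse minus the gene's own mean, with lines that only join the points of 1 gene. All 6 genes are above 0 in WT mice 1 and 3 and below 0 in WT mouse 2 and LSD1-mKO mouse 2.

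The pattern of Fst was flatter, with a root mean square of 0.177, and the 5 genes most like it among 10210 differed from it by 0.0482 to 0.0581. Among them were Vsig10, an immunoglobulin-domain gene, Dhrs7, a dehydrogenase, Miip and Trim8, a member of a ubiquitin ligase family. Vsig10, the closest, stood at 13.0, 14.7 and 12.1 CPM in WT and 14.4, 12.7 and 10.3 CPM in LSD1-mKO. Like Fst, it was highest in WT mouse 2 and lowest in LSD1-mKO mouse 3.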

How the data were processed

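Polyadenylated RNA from Sol of 6 mice was read as 75-base single-end reads, which the authors aligned to mm10 with STAR. The values the authors deposited are estimated counts for each gene, not normalized, of which 8.33 to 9.94% per library were not whole numbers. The counting tool and annotation are not given in the sources used here. They also deposited a DESeq2 table (log2 fold change, standard error, Wald statistic, p and adjusted p), which was not used.

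Counts were rounded and fitted with edgeR 4.0.16 in R 4.3.3 (TMM, filterByExpr, quasi-likelihood test, genotype as the only term), p being adjusted after Benjamini and Hochberg across all 12828 genes that passed the filter and called under 0.05. The SE is the log2 fold change over the root of F. DESeq2 1.42.0, limma 3.58.1 voom, other normalizations and filters, the replicate number as a block and each mouse left out were alternatives. Fits were checked on simulated counts. With 1 library per mouse, p-values set the genotype difference against the variation between mice. In edgeR that variation was estimated with information shared across genes. Intervals on single counts are exact Poisson at 95% and cover counting error only, since PCR reads are not independent molecules. TPM, positions and transcript windows came from GENCODE vM21 (GRCm38), with lengths for 24010 genes holding 99.7% of the counts. Of the symbols, 23350 matched directly and 660 through a synonym. Date-like entries stood in place of 25 symbols of the count table. The chi-square per gene between any pair of libraries was at least 9.92, so no library was counted as a repeat of another.

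Genes named are the 10 pathway genes, Kdm1a, the most abundant gene of each list and those with an unadjusted p under 0.05, and the 5 genes most like Mstn and Fst (prior count of 2), of which 1 is not reported here. Inha, Id2, Smad2 and Smad4 lie outside this rule and were named after their values were seen, Esr1 was named as a called gene, and Prss57, Orc4 and Gm47040 for their overlap. The genes and lists were chosen with earlier results of these data known.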

Additional observations from a re-analysis of the deposited data

How the results depend on the processing

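No pathway gene was called in any alternative, and 130 of 137 alternative values of the 10 genes kept their direction and side of the threshold. The other 7, 6 of them with a mouse left out, turned the sign of 3 genes close to no difference: Acvr2a had a log2 fold change of -0.0032 with library size alone and -0.0618 to 0.0783 with 1 mouse left out, Inhba -0.188 to 0.779 and Fstl3 -0.119 to 0.295. Over all genes, DESeq2 called 33 higher and 9 lower, voom 2 higher, and a fit with no filter 8 higher and 3 lower, against 1 higher and 1 lower in edgeR, and the cause was not tested. With 1 mouse left out 1 to 2 were higher (2 without WT mouse 1) and 0 to 1 lower, with 0 lower without WT mouse 2 or any LSD1-mKO mouse. In those fits 0 to 2 pathway genes had an unadjusted p under 0.05 (2 without WT mouse 2). The share of all genes under that p in those fits is not given here. Replicate numbers did not pair the mice, as same-numbered mice had correlations of their deviations of -0.352, -0.107 and -0.150. Blocking on that number left 0 genes called lower and gave 1 pathway gene, Mstn, an unadjusted p under 0.05 (0.0384, adjusted p of 0.980), and Kdm1a had an adjusted p of 0.299. With at least 10 counts in every library, 7 of the 10 genes were tested, without Mstn, Gdf11 and Inhba. With 3 mice a group and 6 to 43 counts per mouse for the ligands, the intervals of Mstn, Gdf11 and Inhba were wide. A change of these genes within their intervals was not excluded. The size of change that the fit could have called for these genes at their own counts was not tested.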
